A study of Mus musculus with 24 samples.

Results

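The genes described here are the mouse splicing regulators of 6 families: SR proteins, hnRNPs, Mbnl, Celf, Rbfox and Rbm proteins. They were chosen by symbol, as every gene named Srsf, Mbnl, Celf, Rbfox or Rbm plus a number, or starting with Hnrnp, that had a probe set of its own. This gave 75 of the 18193 genes with such a probe set: 10 SR, 19 hnRNP, 3 Mbnl, 6 Celf, 3 Rbfox and 34 Rbm genes. They were read by 225 probe sets, 149 on array design MA and 76 on design MB, and each gene is given by its probe set with the highest mean intensity, with MA preferred. RNA came from C2C12 cells, a mouse myoblast line that can fuse into myotubes, in medium GM or DM and with 25 or 5 mM glucose. In work with this line GM and DM usually mean growth and differentiation medium, but the labels give the letters alone. Each of the 4 groups (GM 25 mM, GM 5 mM, DM 25 mM, DM 5 mM) had 3 samples, called cultures here, and each culture was run on both designs. Culture time is not stated in the sources used here, nor is it said that the 3 samples of a group were grown separately, so p-values measure the spread between these samples, which may be technical. Nothing besides medium and glucose differs between the groups in the labels. The stated aim of the series concerns calorie restriction and myoblast differentiation.

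SR proteins carry domains rich in arginine and serine, bind exonic enhancers and mostly favour use of the bound exon. hnRNPs coat nascent transcripts, and several of them oppose exon use. Mbnl and Celf proteins have opposing effects on many exons that switch during muscle development, and loss of free Mbnl protein to expanded RNA repeats underlies myotonic dystrophy. Rbfox proteins regulate muscle and neuronal exons. Rbm is a naming group and not a family in the strict sense: Rbm20 regulates titin splicing in striated muscle, Rbm24 regulates muscle exons, and its close relative Rbm38 acts in splicing and mRNA stability. The arrays read RNA levels of these genes, not exon use in their targets, and no splicing was measured.

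As a check of the labels, 7 of 9 skeletal muscle markers were higher in DM than in GM at either glucose level and none was lower. Their summed intensity ran from 2222 to 2745 over the GM cultures and from 21415 to 43125 over those in DM. Of 8 neuron markers 2 could be tested and 1, Stmn2, was lower in DM. The summed neuron markers were 1059 to 1581 in GM and 208 to 389 in DM, with Snap25 at a mean of 5.45 or less in every group. Smooth muscle markers moved with medium as well: their sum was 3163 to 5136 in GM and 5917 to 15122 in DM, where Myh11 stayed at a mean of 10.1 or less. Summed adipocyte markers were 316 to 414 in GM and 63.4 to 135 in DM, and the 1 that could be tested was lower. Markers of blood and endothelium, epithelium and osteoblasts summed to at most 280 in any culture. The part of such shifts in the results on medium was not tested. The control probe set for 18S ribosomal RNA divided the cultures. On MA it read 23.0 to 48.1 in GM_5mM-1, GM_5mM-2, DM_25mM-3 and DM_5mM-2 (low-18S) and 279 to 1267 in the other 8 (high-18S). The groups therefore differ in it. Values with this division as a block, or within the 8 high-18S cultures, are given where a change found without them is lost. Changes found only with the block are named for some genes, and counts with it are given at the end. Within the high-18S cultures GM at 5 mM has 1 culture, which is assumed to vary like the others.

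Of the 75 genes, 65 had a used probe set bright enough to test, 50 on MA and 15 on MB. Mbnl3, Rbfox1 and Rbfox3 had other probe sets that were tested but not used, and the counts below leave these out. At 25 mM glucose 11 were higher and 5 were lower in DM than in GM at an adjusted p under 0.05, which is what "called", "rose" and "fell" mean here. On MA these were 9 higher and 5 lower of 50, beside 15.8% higher and 23% lower of all genes tested on MA. On MB 2 of 15 were higher and none was lower, beside 5.99% and 3.74% of genes on MB. At 5 mM glucose 4 rose and 11 fell. On MA this was 3 and 10 of 50, against a background of 12.6% higher and 18.7% lower, and on MB 1 and 1 of 15, against 4.37% and 4.79%. On MA the shares of rises at 25 mM (18%) and of falls at 5 mM (20%) lay near the background, and those of falls at 25 mM (10%) and of rises at 5 mM (6%) lay below it. On MB 4 of 15 had an unadjusted p under 0.05 at 25 mM and 2 of 15 at 5 mM, beside 22.4% and 20.4% of all genes tested on MB. The median log2 change of the 65 genes was 0.07 at 25 mM and -0.01 at 5 mM, against -0.11 and -0.04 over all 12134 genes tested. Median centring of the arrays moves the median change of all probe sets at 25 mM from -0.09 to 0.07 on the log2 scale, and with it the counts became 15 higher and 1 lower at 25 mM and 4 and 9 at 5 mM. Over all 27081 probe sets tested, it moved calls at 25 mM from 2637 higher and 3093 lower to 3553 and 1872. At 5 mM it moved them from 2022 and 2706 to 2040 and 2362. Single cultures also moved the counts. Without GM_25mM-2 or DM_25mM-2 there were 7 rises at 25 mM, where all probe sets had 2265 and 2285. Falls at 25 mM numbered 2 without GM_25mM-1 and 3 without GM_25mM-2 or any DM culture at 25 mM. Falls over all probe sets in these fits numbered 2554 to 2676. Falls at 5 mM numbered 4 without GM_5mM-1, 7 without GM_5mM-2 and 6 without DM_5mM-3. Over all probe sets the same fits gave 1890, 1982 and 2178 falls, so calls were lost across the arrays too.

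Rbm24, Rbm38 and Hnrnpdl rose at both glucose levels, and Srsf4, Srsf9, Hnrnpc and Hnrnpm fell at both. In all, 24 genes were called in at least 1 of these comparisons, none of them in opposite directions, and 41 tested genes were called in neither. The same counts were not made over all genes, so they cannot be read as a trait of the genes described here. The plot of both changes shows most genes within a log2 change of 0.5 of no change, with Rbm24 and Rbm38 far to the upper right. The 2 comparisons share no culture, but they share the estimate of spread.

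**Figure D1:**
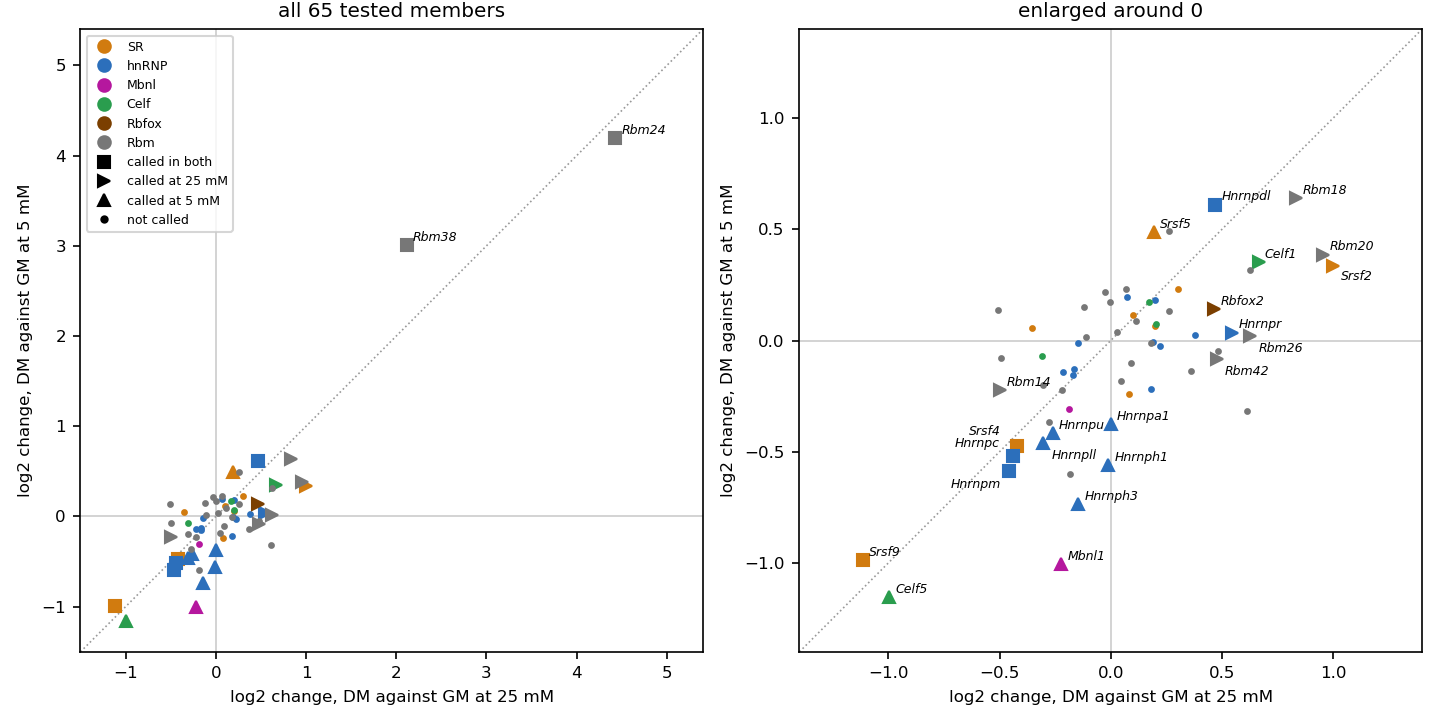
Log2 change of each of the 65 tested genes, DM against GM, at 25 mM glucose (horizontal) and at 5 mM (vertical), coloured by family and shaped by the comparison in which it was called, over the whole range (left) and enlarged around 0 (right); the dotted line marks equal changes. Rbm24 (4.43 and 4.20) and Rbm38 (2.12 and 3.01) stand apart, Srsf9 lies at the lower left, and most other genes cluster around 0.

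Rbm24 and Rbm38, closely related RNA-binding proteins, had the largest changes. Rbm24 (chr13:46418102-46431099, GRCm38.p6) was read on MB at 267, 399 and 440 in GM at 25 mM, 638, 612 and 331 in GM at 5 mM, 8127, 8632 and 7789 in DM at 25 mM, and 7324, 12081 and 10121 in DM at 5 mM. All 6 DM cultures lay more than 10-fold above all 6 GM cultures. The ratio of group means was 22.2 at 25 mM (log2 change 4.43 ± 0.24 SE, adjusted p = 2.86e-10) and 18.7 at 5 mM (4.20 ± 0.24, adjusted p = 6.66e-10). Rbm38 (chr2:173021891-173034734) read 103, 98.5 and 91.3 in GM at 25 mM, 52.9, 64.2 and 82.8 in GM at 5 mM, 604, 525 and 370 in DM at 25 mM, and 775, 551 and 700 in DM at 5 mM. Again no DM culture overlapped a GM culture. Rbm38 rose 5.12-fold at 25 mM (log2 change 2.12 ± 0.19, adjusted p = 7.07e-07) and 10.1-fold at 5 mM (3.01 ± 0.19, adjusted p = 2.13e-08). The 2 rises of Rbm38 did not differ beyond the threshold (interaction 0.89 ± 0.26, adjusted p = 0.208). In bulk RNA more cells of a type and more RNA per cell cannot be told apart, here or below. The plot by culture shows these genes beside 6 others.

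**Figure D2:**
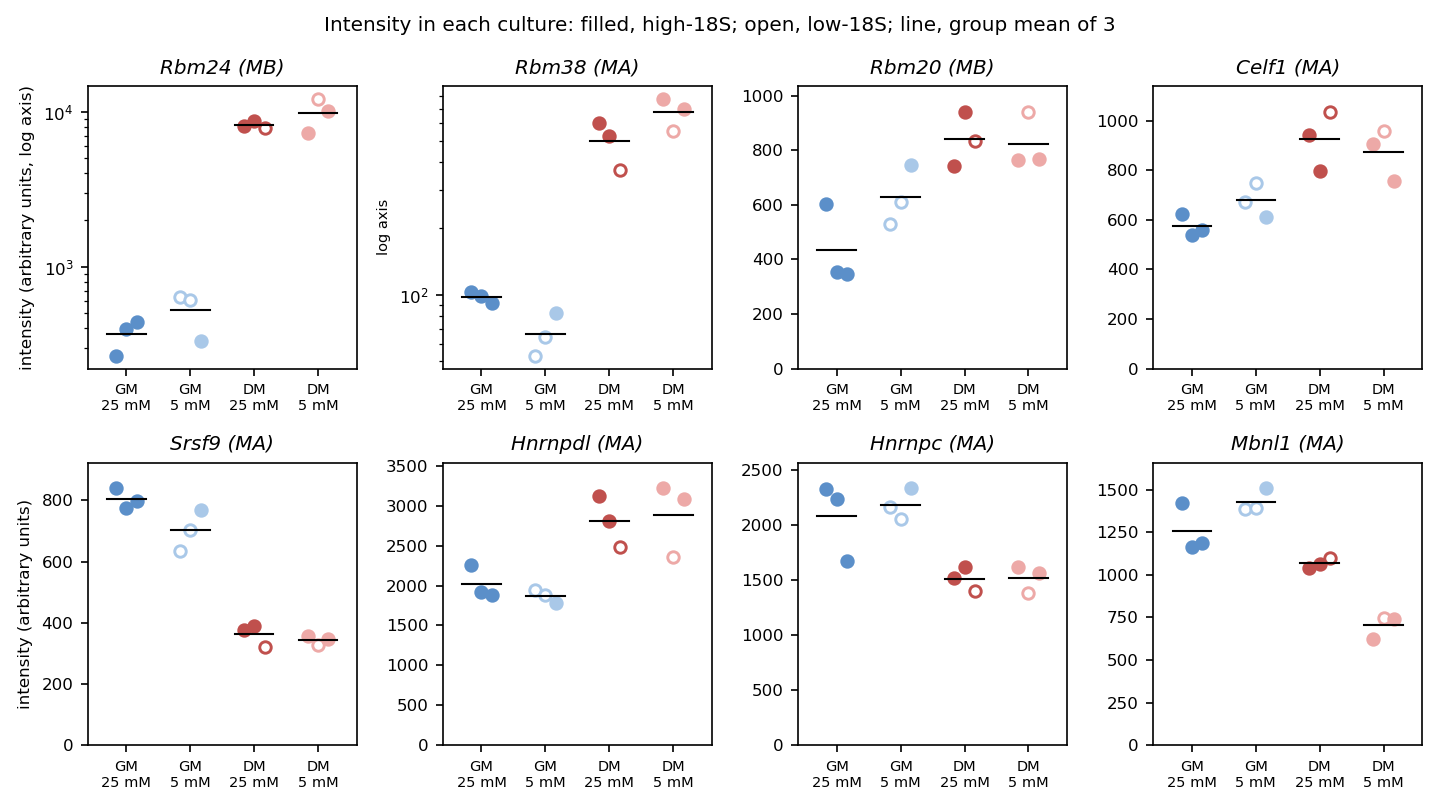
Intensity of 8 genes in each of the 12 cultures, by medium and glucose, with filled points for high-18S cultures, open points for low-18S cultures and a line at each group mean; Rbm24 and Rbm38 have log axes and the others start at 0. Rbm24, Rbm38 and Hnrnpdl are higher in DM and Srsf9 and Hnrnpc are lower at both glucose levels, whereas Mbnl1 is lowest in DM at 5 mM (mean 704).

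Because these 2 genes rose most, sequence before their annotated starts is shown, from RefSeq on GRCm38.p6, plus strand. The promoter table's windows hold the 250 bases before the transcript start it lists, at position 46418300 for Rbm24 and 173021902 for Rbm38. The gene bounds given above start earlier, so 198 bases of the Rbm24 window and 11 of the Rbm38 window lie inside the gene and are not printed. The bases shown are chr13:46418050-46418101 for Rbm24 and chr2:173021652-173021890 for Rbm38. Capitals mark matches to CANNTG, the E-box that myogenic factors such as MyoD and myogenin can bind.
Rbm24: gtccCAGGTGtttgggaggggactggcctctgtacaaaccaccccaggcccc
Rbm38: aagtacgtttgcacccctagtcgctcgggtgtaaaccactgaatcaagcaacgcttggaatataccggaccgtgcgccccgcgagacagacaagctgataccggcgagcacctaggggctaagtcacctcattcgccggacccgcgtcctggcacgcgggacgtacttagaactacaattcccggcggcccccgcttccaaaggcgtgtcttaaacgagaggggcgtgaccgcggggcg
Rbm24 held CAGGTG starting 48 bases before the gene's start. The rest of its window, inside the gene, held CAACTG starting 15 bases after that start, and the Rbm38 window held no CANNTG. Such a match occurs in 66.2% of the 32851 windows of 250 bases before a listed transcript start in the table, on either strand, and in 58 of 97 windows of the 64 genes described here that the table holds. CAGCTG, a stricter form that is counted within CANNTG too, was in neither gene's window and in 13% of all windows, against 12 of 97. The MEF2 box was in neither gene's window and in 2.92% of all windows, against 1 of 97. These are matches of letters, and no binding was measured.

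Among the other Rbm genes, Rbm20, Rbm18, Rbm26 and Rbm42 rose and Rbm14 fell at 25 mM. At 5 mM none of the 5 was called by the probe set used, but Rbm14 and Rbm18 were called by another probe set. No interaction was called for any of the 5, so a difference between glucose levels is not shown. Rbm20 (chr19:53660989-53867083), the regulator of titin exons, read 605, 355 and 347 in GM at 25 mM, 530, 610 and 748 in GM at 5 mM, 744, 942 and 834 in DM at 25 mM, and 763, 941 and 770 in DM at 5 mM. The DM cultures lay above the GM cultures at each glucose level, though narrowly at 5 mM. The log2 change was 0.96 ± 0.22 at 25 mM (adjusted p = 0.0104) and 0.39 ± 0.22 at 5 mM (adjusted p = 0.455). Without GM_25mM-2, GM_25mM-3 or DM_25mM-2 the adjusted p of the first was 0.0590 to 0.0656. Rbm14, a transcriptional coactivator and paraspeckle protein, averaged 404 ± 40.7 (SD, n = 3) in GM and 280 ± 30.6 in DM at 25 mM, a change of -0.50 ± 0.13 (adjusted p = 0.00685). At 5 mM it averaged 406 and 345 (-0.22 ± 0.13, adjusted p = 0.215), and with median centring the fall at 25 mM was not called (-0.30, adjusted p = 0.0878).

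Rbm18 rose by 0.83 ± 0.29 at 25 mM (adjusted p = 0.0381), from a mean of 98.3 to 178, and the call was lost without GM_25mM-2, DM_25mM-1 or DM_25mM-2 (adjusted p 0.0790 to 0.169). Rbm26, which takes part in nuclear RNA decay, rose by 0.63 ± 0.19 (adjusted p = 0.0192), from 66.6 to 115, but not without GM_25mM-1 or DM_25mM-3 (adjusted p 0.0685 and 0.0923). Rbm42 rose by 0.48 ± 0.15 (adjusted p = 0.0245), from 197 to 278; without GM_25mM-2 or any 1 of the DM cultures at 25 mM the adjusted p was 0.0502 to 0.114. Rbm26 and Rbm42 had a closer mean in the media at 5 mM, with changes of 0.02 ± 0.19 and -0.08 ± 0.15. Among the high-18S cultures alone both had a change of 0.48 at 25 mM and neither was called (adjusted p = 0.0874 and 0.0627). When the brightest probe set of both designs stood for the gene, the sign at 25 mM turned for Rbm18 (-0.00340, adjusted p = 0.999) and Rbm26 (-0.0287, adjusted p = 0.971). Of the 29 Rbm genes tested, 6 rose and 1 fell at 25 mM, and 2 rose and none fell at 5 mM. Over all genes tested on both designs 12.6% rose and 16.6% fell at 25 mM, and 9.9% rose and 14.1% fell at 5 mM. The uncalled Rbm genes ran from -0.51 (Rbm6) to 0.63 (Rbm34) at 25 mM, and from -0.60 (Rbm15) to 0.64 (Rbm18) at 5 mM.

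Celf1 and Rbfox2 rose in DM at 25 mM glucose. Celf1 (chr2:90940259-91019497), whose protein opposes Mbnl1 on many exons, read 622, 537 and 560 in GM and 941, 795 and 1036 in DM with 25 mM glucose. With 5 mM it read 673, 749 and 612 in GM and 903, 959 and 756 in DM. The DM cultures lay above the GM cultures at each glucose level. The change was 0.67 ± 0.14 at 25 mM (adjusted p = 0.00149) and 0.35 ± 0.14 at 5 mM (adjusted p = 0.0657). With the 18S division as a block the change at 5 mM was called. Rbfox2, the widely expressed Rbfox protein, read 390, 488 and 354 in GM and 573, 587 and 550 in DM at 25 mM, a rise of 0.47 ± 0.13 (adjusted p = 0.0136). That call was lost without GM_25mM-3 (adjusted p = 0.0657) and with quantile normalization (adjusted p = 0.0573). At 5 mM it read 395, 340 and 426 in GM and 463, 399 and 421 in DM, which overlap (0.14 ± 0.13, adjusted p = 0.488). Celf2 changed by 0.17 ± 0.12 and 0.18 ± 0.12 (adjusted p = 0.301 and 0.335), and its change at 5 mM was called with the 18S block.

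Celf5 fell at 5 mM by 1.15 on the log2 scale (SE 0.33, adjusted p = 0.0436), from a mean of 257 to 108, and had a change of -1.0 ± 0.33 at 25 mM (adjusted p = 0.0824). Its cultures did not overlap between media, yet the call at 5 mM was lost in 9 of 12 fits with 1 culture left out (adjusted p 0.0502 to 0.177): without any 1 GM culture, DM_25mM-1, DM_5mM-1 or DM_5mM-3. With the 18S division as a block the change at 5 mM was -1.04 (adjusted p = 0.0619), among the high-18S cultures alone it was -1.23 (adjusted p = 0.407), and the call held in 10 of 27 alternatives. Celf3 and Celf6 were not called. Celf5, Celf3 and Celf6 are best known from brain, and the summed neuron markers were also lower in DM. Their part in the Celf5 change was not tested.

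Mbnl1, the main muscleblind protein of skeletal muscle, fell in DM at 5 mM glucose and was not called at 25 mM, and Mbnl2 was called at neither. Mbnl1 (chr3:60472559-60629750) read 1424, 1162 and 1189 in GM at 25 mM, 1390, 1392 and 1510 in GM at 5 mM, 1043, 1067 and 1102 in DM at 25 mM, and 621, 748 and 743 in DM at 5 mM. The 3 cultures in DM at 5 mM lay below all 9 others. The change of medium was -0.22 ± 0.12 at 25 mM (adjusted p = 0.172) and -1.01 ± 0.12 at 5 mM (adjusted p = 1.89e-05). The fall at 5 mM was called in each of the 27 alternative fits. The difference between the 2 changes, the interaction, was -0.78 ± 0.17 with an adjusted p of 0.0659, which misses the threshold, beside 0.478% of all genes called. Over its 26 alternatives that p ran from 0.0101 to 0.207. The interaction was called in 6 of them, among them the fit with the 18S division as a block. Mbnl2 on MB averaged 1653 and 1453 in GM and DM at 25 mM and 1811 and 1454 at 5 mM, with changes of -0.19 ± 0.19 and -0.31 ± 0.19 (adjusted p = 0.683 and 0.504).

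Among SR genes, Srsf9 and Srsf4 fell at both glucose levels, Srsf2 rose at 25 mM and Srsf5 rose at 5 mM. Srsf9 (chr5:115327163-115333843), also known as SRp30c, read 840, 777 and 799 in GM at 25 mM, 635, 704 and 768 in GM at 5 mM, 376, 391 and 321 in DM at 25 mM, and 357, 326 and 347 in DM at 5 mM. Each DM culture was below every GM culture. The changes were -1.11 ± 0.12 (adjusted p = 3.60e-06) and -0.99 ± 0.12 (adjusted p = 1.32e-05), and both were called in all 27 alternative fits. Srsf4, also known as SRp75, averaged 451 in GM and 331 in DM at 25 mM (-0.42 ± 0.13, adjusted p = 0.0172) and 417 and 294 at 5 mM (-0.47 ± 0.13, adjusted p = 0.0103). Its call at 25 mM was lost with median centring (-0.22, adjusted p = 0.200), and without GM_25mM-1, GM_25mM-3, DM_25mM-2 or DM_25mM-3 (adjusted p 0.0512 to 0.0597); at 5 mM it was lost without GM_5mM-1 (adjusted p = 0.0639). Among the high-18S cultures alone the changes were -0.37 and -0.34 and neither was called (adjusted p = 0.0535 and 0.254).

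Srsf2, also known as SC35, a marker protein of nuclear speckles, read 511, 559 and 546 in GM and 1042, 810 and 1556 in DM at 25 mM, a rise of 1.0 ± 0.27 (adjusted p = 0.00956). At 5 mM it read 673, 1118 and 658 in GM and 990, 1451 and 704 in DM, which overlap (0.34 ± 0.27, adjusted p = 0.401). With the 18S division as a block that change at 5 mM was called. In each group with a low-18S culture the highest value came from such a culture. Among high-18S cultures alone the change at 25 mM was 0.75 (adjusted p = 0.00282). When _x_at and _s_at probe sets were dropped, another probe set stood for Srsf2 and had the opposite sign, -0.59 (adjusted p = 0.167). Srsf5, also known as SRp40, rose at 5 mM from a mean of 1578 to 2236 (0.49 ± 0.14, adjusted p = 0.0185) and averaged 1721 and 1972 at 25 mM (0.20 ± 0.14, adjusted p = 0.310). The rise was not called without GM_5mM-2 or DM_5mM-3 (adjusted p = 0.0516 and 0.0828). Srsf1, the founding SR protein, had -0.36 ± 0.23 and 0.05 ± 0.23, Srsf3 0.08 ± 0.14 and -0.24 ± 0.14, and Srsf10, a splicing repressor, 0.10 ± 0.23 and 0.11 ± 0.23 at 25 and 5 mM, with no call.

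**Figure D3:**
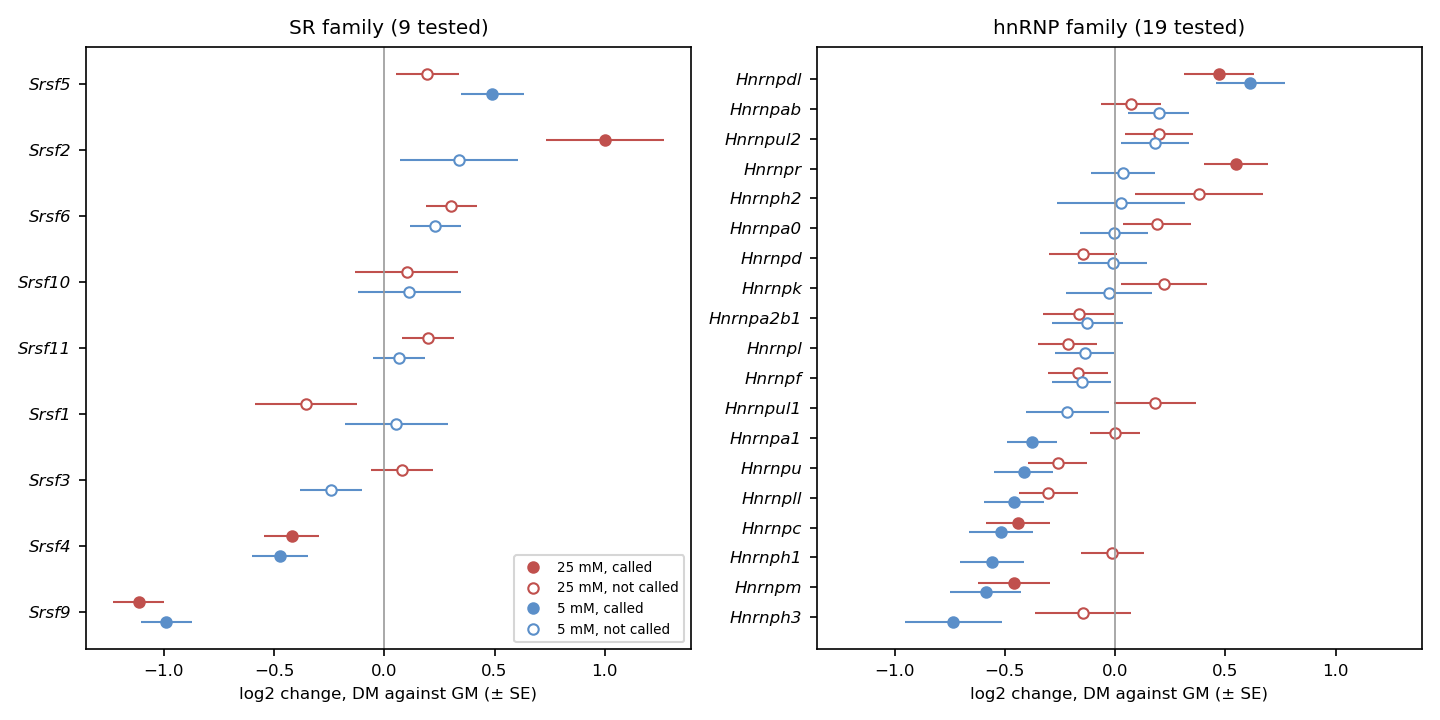
Log2 change, DM against GM, with its SE, of the 9 tested SR genes (left) and 19 tested hnRNP genes (right), in red at 25 mM and blue at 5 mM glucose; filled points are called at an adjusted p under 0.05. Srsf9 is lowest among SR genes (-1.11 and -0.99), and 7 hnRNP genes are called lower at 5 mM against 2 at 25 mM.

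Of the 19 hnRNP genes, 7 fell and 1 rose at 5 mM, whereas 2 fell and 2 rose at 25 mM. The 7 falls at 5 mM were all on MA, where 18 were tested and 18.7% of all genes fell and 12.6% rose; at 25 mM 23% fell and 15.8% rose. The median change over the 19 was -0.14 at 5 mM and -0.01 at 25 mM. Hnrnpc, which binds uridine-rich tracts in nascent transcripts, read 2324, 2238 and 1673 in GM and 1517, 1619 and 1402 in DM with 25 mM glucose; with 5 mM it read 2160, 2052 and 2333 in GM and 1614, 1378 and 1566 in DM at 5 mM. Its groups did not overlap at either level. It changed by -0.44 ± 0.15 (adjusted p = 0.0300) and -0.52 ± 0.15 (adjusted p = 0.0154). Hnrnpm changed by -0.46 ± 0.16 (adjusted p = 0.0397) and -0.59 ± 0.16 (adjusted p = 0.0132), although its cultures overlapped at 25 mM. At 25 mM both falls were lost with median centring (adjusted p = 0.213 and 0.246) and with 4 of the 6 cultures compared left out in turn: GM_25mM-1, GM_25mM-2 or DM_25mM-1 for either gene, DM_25mM-3 for Hnrnpc (adjusted p 0.0676 to 0.117) and DM_25mM-2 for Hnrnpm (0.0822 to 0.179). At 5 mM Hnrnpm was not called without GM_5mM-1 (adjusted p = 0.0595).

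At 5 mM 5 more hnRNP genes fell. Hnrnph1, which binds runs of guanosines, read 1833, 1490 and 1405 in GM and 1068, 1108 and 997 in DM (-0.56 ± 0.14, adjusted p = 0.00894), and at 25 mM it changed by -0.01 ± 0.14. Hnrnph3 fell from a mean of 134 to 72.5 (-0.73 ± 0.22, adjusted p = 0.0207), Hnrnpll, a regulator of CD45 exons in lymphocytes, from 717 to 516 (-0.46 ± 0.13, adjusted p = 0.0182), Hnrnpu, a scaffold protein of chromatin, from 1228 to 915 (-0.42 ± 0.13, adjusted p = 0.0301) and Hnrnpa1, a repressor of many exons, from 554 to 423 (-0.38 ± 0.11, adjusted p = 0.0216). Their groups did not overlap. Leaving out GM_5mM-1 ended the calls of Hnrnph1 (adjusted p = 0.0562), Hnrnph3, Hnrnpll and Hnrnpu; GM_5mM-2 and DM_5mM-3 also ended the last 3, and DM_5mM-1 those of Hnrnph3 and Hnrnpu (adjusted p up to 0.101 over these fits). The call of Hnrnpa1 was lost without GM_5mM-3 or DM_5mM-3 (adjusted p = 0.0801 and 0.0989). Among the high-18S cultures alone, with 1 GM culture at 5 mM, Hnrnpa1 was the 1 of the 7 that kept its call (-0.55, adjusted p = 0.0395). There Hnrnpc changed by -0.55 and Hnrnpm by -0.69 (adjusted p = 0.0551 and 0.0801), and Hnrnph1, Hnrnph3, Hnrnpll and Hnrnpu by -0.44, -0.62, -0.36 and -0.34. When _x_at and _s_at probe sets were dropped, another probe set stood for Hnrnpa1 and for Hnrnpll, with -0.09 (adjusted p = 0.679) and -0.54 (adjusted p = 0.108), and Hnrnpu was not called with median centring (adjusted p = 0.0534). No interaction was called for any hnRNP gene, so a larger fall at 5 mM than at 25 mM is not shown.

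Hnrnpdl and Hnrnpr were the hnRNP genes that rose. Hnrnpdl, mutated in a form of limb-girdle muscular dystrophy, read 2264, 1915 and 1878 in GM and 3126, 2811 and 2485 in DM with 25 mM glucose; with 5 mM it read 1947, 1879 and 1781 in GM and 3223, 2358 and 3091 in DM at 5 mM. Every DM culture was above every GM culture. It changed by 0.47 ± 0.16 (adjusted p = 0.0301) and 0.61 ± 0.16 (adjusted p = 0.00845). The call at 25 mM was lost without GM_25mM-2, GM_25mM-3, DM_25mM-1 or DM_25mM-2 (adjusted p 0.0697 to 0.112). Hnrnpr rose at 25 mM from a mean of 303 to 453 (0.55 ± 0.15, adjusted p = 0.00934) and averaged 417 and 428 at 5 mM (0.04 ± 0.15). Hnrnpk, Hnrnpl and Hnrnpa2b1, among the best known hnRNPs, were called in neither comparison by the probe set used. Their changes were 0.22 ± 0.19, -0.22 ± 0.13 and -0.17 ± 0.16 at 25 mM and -0.03 ± 0.19, -0.14 ± 0.13 and -0.13 ± 0.16 at 5 mM. Another Hnrnpk probe set was called at 25 mM.

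Glucose itself moved few of these genes. In GM no gene was called by limma between 5 and 25 mM, beside 0.00824% of all genes; 5 of 65 had an unadjusted p under 0.05, which is 7.69%, against 9.56% of all genes. The smallest p-values were those of Hnrnpr (0.44 ± 0.15, adjusted p = 0.407), Rbm42 (0.41 ± 0.15, adjusted p = 0.432) and Celf2 (0.32 ± 0.12, adjusted p = 0.439), all with higher values at 5 mM. With array weights, which give less weight to noisier arrays, 2 were called higher and 2 lower. The same fit called 415 higher and 400 lower of all 27081 probe sets tested. The 3 cultures in GM at 5 mM include 2 low-18S cultures and those at 25 mM none, so this comparison is uneven in the 18S control.

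In DM Mbnl1 alone was called between glucose levels, and it was lower at 5 mM. The background on MA was 1.35% lower and 0.677% higher. Its mean fell from 1070 ± 29.8 to 704 ± 71.7 (SD, n = 3), a ratio of 0.658 and a log2 change of -0.60 ± 0.12 (adjusted p = 0.0220), with no overlap between the groups. In GM the same gene changed by 0.19 ± 0.12 (adjusted p = 0.544). The call in DM was lost without any 1 of the DM cultures except DM_5mM-2 (adjusted p 0.0516 to 0.121), and among the high-18S cultures alone (-0.62, adjusted p = 0.0559), while with the 18S division as a block the adjusted p was 0.00282. Without the trend, with the replicate number as a block and with only the 2 groups compared the call was lost too (adjusted p = 0.0620, 0.0659 and 0.0983). The call held in 18 of 27 alternatives, and the change was -0.51 or lower in all 27. Over all 65 genes 7 had an unadjusted p under 0.05 in DM, which is 10.8%, against 9.75% of all genes. For the interaction limma called none, and 7 of 65 had an unadjusted p under 0.05, against 11.1% of all genes. The smallest p-values there belonged to Mbnl1, Rbm38 and Hnrnph1 (-0.55 ± 0.20, adjusted p = 0.314).

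Different probe sets of a gene often gave different sizes, and 181 of the 225 probe sets were tested. No gene had probe sets called in opposite directions within a comparison. Beside the probe sets used, the genes called at 25 mM had 33 other tested probe sets, of which 28 changed with the same sign and 13 were called. At 5 mM these numbers were 19, 16 and 5. The same agreement was not counted over all genes. The change of Hnrnpdl was positive at both glucose levels by all 6 of its tested probe sets, though not called by every one. Rbm24 had 3 probe sets that rose by 3.09 or more at both levels, and another 2 that were not called, with 0.32 and 0.25 at 25 mM and 0.85 and 0.14 at 5 mM. Celf1 had 4 of 5 probe sets called at 25 mM, and 2 that were not used for the gene were called at 5 mM, with 1.03 and 0.55.

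Some genes were called only by a probe set other than the one used for the gene. At 25 mM these were Hnrnpab, Hnrnpk, Mbnl3, Srsf1 and Srsf6. At 5 mM they were Celf1, Celf2, Hnrnpab, Mbnl3, Rbm14, Rbm18, Rbm39, Srsf1, Srsf2 and Srsf6. Mbnl3, a muscleblind gene known to inhibit muscle differentiation, was at 18.9 to 34.6 in the group means on MA and was not tested there. A brighter probe set on MB, not used because MA was preferred, averaged 418 and 205 in GM and DM at 25 mM (-0.96 ± 0.28, adjusted p = 0.0417). At 5 mM it averaged 792 and 269 (-1.49 ± 0.28, adjusted p = 0.00164). A Celf2 probe set on MB averaged 33.0 and 150 in GM and DM at 25 mM, which was not called, and 19.4 and 326 at 5 mM, which was. Both GM means were below the limit for a test on MB (about 54.1), so it was tested through its DM values and the size of its change is not given. The 3 tested on MA had -0.01 to 0.18 at 5 mM. A Rbm39 probe set on MA fell at 5 mM by 1.14 on the log2 scale (SE 0.28, adjusted p = 0.00657), where the one used had 0.02. For Srsf1 a dim probe set rose by 1.11 and 0.90 at 25 and 5 mM (adjusted p = 0.00189 and 0.00923), and the one used was not called. For Srsf2 the probe sets gave 1.0, 0.20, 0.48 and -0.59 at 25 mM, and those with 0.20 and 0.48 rose at 5 mM (0.53 and 0.60, adjusted p = 0.0184 and 0.00179). The 2 other Mbnl1 probe sets, both on MB and dim, had SEs of 0.58 and 0.75 and were not called. Which transcripts each probe set reads was not tested.

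**Figure D4:**
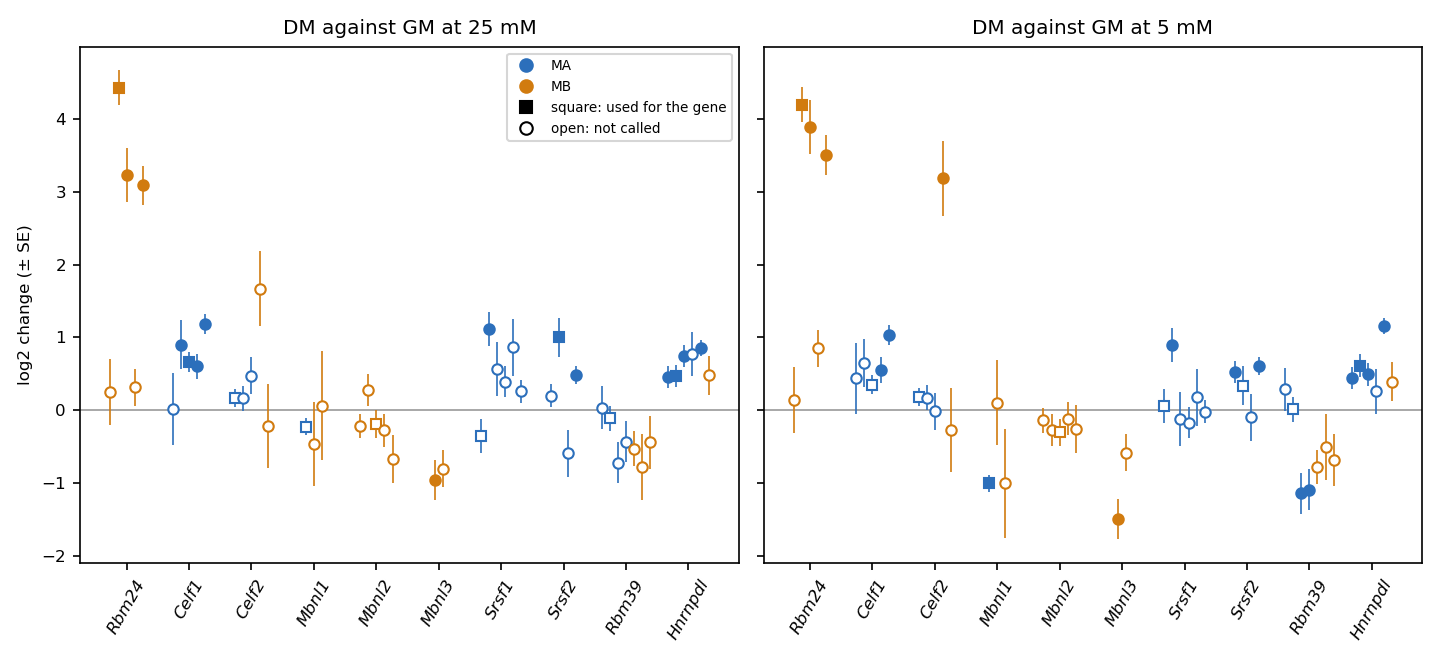
Log2 change, DM against GM, with its SE, of every tested probe set of 10 genes at 25 mM (left) and 5 mM glucose (right), blue on MA and orange on MB; squares mark the probe set used for the gene and filled symbols those called. Hnrnpdl probe sets all lie above 0, while Rbm24 and Srsf1 have probe sets that changed strongly beside others near 0. A Celf2 probe set on MB was tested through its DM values, so the size drawn for it is not to be read.

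The 10 genes whose used probe set was not tested were Srsf12, Mbnl3, Celf4, Rbfox1, Rbfox3, Rbm11, Rbm43, Rbm44, Rbm46 and Rbm47. Rbfox3 had 2 other probe sets that were tested, and they were called in neither comparison of media. Rbfox1, the Rbfox gene of muscle, heart and neurons, read 13.1, 5.26 and 7.61 in GM at 25 mM, 14.8, 19.7 and 32.9 in GM at 5 mM, 49.3, 81.3 and 47.6 in DM at 25 mM, and 31.7, 24.3 and 40.6 in DM at 5 mM. The DM cultures lay above the GM cultures at 25 mM and overlapped them at 5 mM, but the mean level was below the limit for a test (about 33.2 on MA). A Rbfox1 probe set on MB was tested, averaged 37.0, 50.5, 150 and 83.0 in these groups, and was not called (adjusted p = 0.196 and 0.856). Both its GM means were below the limit for a test on MB (about 54.1). It was thus tested through its DM values, and the size of its change is not given. Another 17 probe sets name a gene of these families together with others, so Rbm3 and Rbm4 are not reported. Of the 16 tested among them, none rose and 4 fell at 25 mM, and 1 rose and 7 fell at 5 mM. Of all 27081 probe sets tested, 2637 rose and 3093 fell at 25 mM, and 2022 rose and 2706 fell at 5 mM.

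Other genes of the splicing machinery gave mixed counts, to be read beside the 12.6% higher and 16.6% lower at 25 mM and 9.9% and 14.1% at 5 mM over all genes tested. Of 39 other splicing regulators tested, 4 rose and 5 fell at 25 mM and 3 rose and 7 fell at 5 mM. The polypyrimidine tract proteins Ptbp1, a repressor of neuronal and muscle exons, and Ptbp3 fell by 0.95 and 1.06 at 25 mM and by 1.11 and 0.89 at 5 mM (SE 0.18 and 0.13, adjusted p up to 0.00105). Msi2 rose by 1.04 and 1.12 (SE 0.29, adjusted p = 0.0123 and 0.00943), and Qk, the quaking protein that regulates muscle exons, by 0.95 at 25 mM (SE 0.22, adjusted p = 0.00430) with 0.32 at 5 mM. Of the 9 kinases that phosphorylate SR proteins, 3 rose at 25 mM and 2 at 5 mM and none fell. Srpk3, the muscle-specific SR kinase, averaged 55.9 and 183 in GM and DM at 25 mM (1.42 ± 0.20, adjusted p = 5.77e-05), and 26.6 and 110 at 5 mM. The GM mean at 5 mM was below the limit for a test on MA, so no size is given there. Dyrk1a rose by 1.32 and 1.24, and Clk1 by 0.37 at 25 mM.

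Of 58 core spliceosome genes tested, 6 rose and 6 fell at 25 mM and 2 rose and 10 fell at 5 mM. Snrpg, an Sm protein of the small nuclear RNPs, fell by 0.79 and 0.67 (SE 0.12), and Eftud2, a GTPase of the U5 particle, fell by 0.34 and 0.67 (SE 0.11). Prpf19 rose by 0.45 and 0.68 (SE 0.15), and Usp39 rose by 0.80 at 25 mM (SE 0.22). Of 14 genes of the exon junction complex and nonsense-mediated decay, 2 rose and 1 fell at 25 mM and 1 rose and 1 fell at 5 mM: Smg5 rose and Casc3 fell at both, and Ncbp1 rose at 25 mM (0.66 ± 0.13). The median changes of these lists at 25 and 5 mM were 0.07 and -0.10 for the other regulators, 0.31 and 0.17 for the kinases, -0.09 and -0.07 for the core spliceosome and -0.03 and 0.06 for the junction complex and decay genes, beside -0.11 and -0.04 over all genes. No gene of these lists was called between glucose levels or in the interaction by limma; in GM 2, 1, 3 and 1 of them had an unadjusted p under 0.05, in DM 1, 1, 0 and 0, and in the interaction 1, 0, 3 and 0, in the same order.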

How the data were processed

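Biotin-labelled total RNA of 12 cultures was measured on 2 array designs, 24 arrays in all. The deposited values are probe set intensities on a linear scale; the software, scaling and filters that the authors used are not given in the sources used here. No column of values was left unused. Control probe sets were removed. After adding 20 the intensities were put on a log2 scale with no further scaling, which understates fold changes of dim genes. Tests took the probe sets whose mean log2 value exceeded the 40th percentile on that design: 13575 of 22626 on MA (about 33.2) and 13506 of 22511 on MB (about 54.1). Probe sets were named by the platform annotation, with symbols updated through the Entrez ID to RefSeq (GRCm38.p6). Probe sets that name several genes, and 3 of 2 antisense genes, were set aside.

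Each design was fitted with limma 3.58.1 (R 4.3.3, statmod 1.5.0) as 4 group means over 12 arrays, with eBayes and a trend (8 residual and 6.22 or 10.1 prior degrees of freedom). Tests were two-sided, with Benjamini-Hochberg adjustment over all probe sets of a design and a threshold of 0.05. The 5 contrasts were DM against GM at 25 and 5 mM, 5 against 25 mM in GM and in DM, and their interaction. Gene counts over both designs use 1 probe set a gene. Fit and calls were tested on simulated data. Figures were drawn with matplotlib 3.10.9. The small number of arrays limits the precision.

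The members and gene lists were chosen with earlier results of these data known. Named genes are all called members of the media comparisons, all called or else the 3 smallest p-values of the other contrasts, a set of fixed names, and up to 4 called genes of each list. Rbm6, Rbm15, Rbm34 and Rbm39, and the single probe sets described, were chosen after their values were seen. Alternatives were pseudocounts 1 and 64, no filter or the 60th percentile, median centring, quantile normalization, no trend, array weights, the replicate number or the 18S division as a block, the high-18S cultures alone, only the groups compared, no _x_at or _s_at probe sets, the brightest probe set over both designs, and each culture left out. A fit with median centring and the 18S block was added after seeing the data.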

Additional observations from a re-analysis of the deposited data

How the results depend on the processing

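The calls that held in all 27 alternatives were those of Rbm24, Rbm38, Celf1, Hnrnpr and Srsf9 at 25 mM and of Rbm24, Rbm38, Hnrnpdl, Mbnl1 and Srsf9 at 5 mM, 5 of 16 and 5 of 15 called genes. Calls were kept for 16 and 14 genes with the 18S block, 12 and 13 with median centring and 13 and 7 within the high-18S cultures. The sign turned for 3 genes at 25 mM: Srsf2 was at -0.59 without _x_at and _s_at probe sets, and Rbm18 and Rbm26 were at -0.00340 and -0.0287 when the brightest probe set of both designs was used; another probe set stood for the gene in each case. Falls at 25 mM numbered 1 with median centring, also with the 18S block added, 9 with quantile normalization or the 18S block, and 3 with the replicate block. Over all probe sets these fits gave 1872, 2421, 2959, 3808 and 2856 falls in that order, against 3093 in the main fit. At 5 mM rises numbered 7 with the 18S block, with or without centring. All probe sets had 2721 rises with the block and 2877 with centring added, against 2022 in the main fit. Named genes that gained a call with the 18S block were Celf1, Celf2 and Srsf2 at 5 mM, Hnrnpu at 25 mM and Mbnl1 in the interaction. In GM 2 rises and 2 falls were called with array weights, beside 415 and 400 of all 27081 probe sets tested. In DM falls numbered 0 without trend, with the replicate block, within the high-18S cultures and with only the groups compared, and 3 with centring and block; 2 rises were called with the 18S block. Over all probe sets in DM, falls numbered 145 in the main fit, 110 without trend, 100 with the replicate block, 79 with only the groups compared and 406 with centring and block. Rises there numbered 86 in the main fit and 278 with the 18S block. In the interaction 1 rise was called with array weights, and 1 fall with the 60th percentile filter, median centring, quantile normalization, array weights, the 18S block and centring with block. All probe sets had 23 rises and 52 falls in the main fit, 147 rises with array weights, and 55 to 197 falls in these fits.

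The median log2 change at 25 mM was 0.270 with median centring, 0.0253 with array weights, -0.00373 with the 18S block, -0.0119 within the high-18S cultures, 0.186 with centring and block and -9.44e-05 with the brightest probe set. At 5 mM it was -0.0578 with array weights, 0.0357 with centring and block and -0.0656 with the brightest probe set. In GM it was 0.243, 0.0824, 0.0276 and 0.0480 with median centring, array weights, the 18S block and the high-18S cultures. In the interaction it was -0.0768 without filter, -0.275 with median centring, -0.0432 with quantile normalization, -0.0429 with the 18S block, -0.0663 within the high-18S cultures and -0.181 with centring and block. Median centring also moved the median of all probe sets to 0.13 in GM and -0.15 in the interaction. The cause of these differences was not tested.

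With 1 culture left out, rises at 25 mM numbered 7 to 11, falls 2 to 5 and the median was -0.0119 to 0.0867. At 5 mM rises numbered 3 to 5, falls 4 to 12 and the median was -0.0763 to 0.0101. The median was 0.0656 to 0.145 in GM, -0.0569 to -0.00206 in DM, where falls numbered 0 to 1, and -0.144 to -0.0712 in the interaction. Deviations of cultures with the same replicate number had correlations of -0.56 to 0.52 on MA and -0.21 to 0.24 on MB. The number was not used as a pairing in the main fit. These values cannot exclude a pairing, because cultures with different numbers were not compared. With the number as a replicate block, 14 of 16 calls at 25 mM and 13 of 15 at 5 mM were kept. Dim probe sets near the test limit have few reliable values.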
